A study of Mus musculus with 12 samples.

Results

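The disease-associated microglia genes are 10 genes that microglia raise around amyloid plaques and damaged neurons, *Trem2*, *Tyrobp*, *Apoe*, *Cst7*, *Itgax*, *Clec7a*, *Lpl*, *Axl*, *Spp1* and *Cd68*. They were taken by symbol, and each of the 10 was found once among the 36047 genes of the deposited transcript tables. The libraries are bulk RNAseq of mouse cortex from 3 WT and 3 *Gde2*KO animals at 4 months and 3 WT and 3 *Gde2*KO animals at 19 months, and the study used males and females. *Gde2*KO mice carry a constitutive deletion of GDE2, a membrane enzyme that cleaves GPI anchors and is encoded by *Gdpd5*, in all cells rather than in microglia. The study sequenced the 19-month cortices to look for splicing defects and the 4-month cortices to find pathways behind altered TDP-43 trafficking, and the members were measured in the same libraries. The 4-month libraries carry replicate numbers 1 to 3, and the 19-month libraries, whose columns carry none, are called A, B and C.

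Microglia are the resident macrophages of the brain. TREM2 is a microglial surface receptor for lipids and apolipoproteins that signals through the adaptor encoded by *Tyrobp*. In the disease-associated state, microglia lower homeostatic genes such as *P2ry12* and *Tmem119* and raise genes of lipid uptake, lysosomes and phagocytosis. Several members are not microglial alone, since astrocytes make most of the cortical *Apoe*, neurons express *Lpl* and *Spp1*, and border and peripheral macrophages express *Itgax*, *Clec7a*, *Cd68* and *Spp1*. In bulk cortex a change in the number of cells of a type cannot be told apart from a change in RNA per cell.

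Values are normalised counts, which are estimated counts of a gene's transcripts divided by a size factor for each library. Estimated depth was 46434270 to 59728494 reads at 4 months. At 19 months it was 36915259 to 44604721 reads in 4 libraries, 6734475 reads in WT A and 3707928 reads in *Gde2*KO A. One estimated read is worth 4.66 normalised counts in WT A and 8.29 in *Gde2*KO A, against 0.597 to 0.847 in the other 10 libraries, so a low value in *Gde2*KO A rests on very few reads. *Gdpd5* was 684, 702 and 1199 in the 4-month WT libraries against 417, 585 and 403 in *Gde2*KO, a difference that was not called. At 19 months it was 1065, 1129 and 952 in WT against 441, 456 and 560.1 in *Gde2*KO, a log2 fold change of -1.11 ± 0.12 (SE, limma adjusted p = 0.0111).

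Several libraries carried genes of other tissues or sexes, and the rod, Y-linked and liver genes were picked after their values had been seen. The summed count of 4 rod photoreceptor genes was 24.9 to 46.7 at 4 months and 2007 to 2762 at 19 months, in both genotypes. The summed count of 4 Y-linked genes was 251 to 369.7 in the 6 4-month libraries and 371 in 19-month *Gde2*KO A, and 4224 to 4797 in the other 5 19-month libraries, so sex cannot be told apart from age in most of the data. Among the 4-month libraries, 12 hippocampal markers summed to 63619 in WT 1 and 55354 in WT 2 and to 18176 to 24435 in the other 4, and 10 striatal markers summed to 8292 and 6382 in WT 1 and 2 against 35876 to 95708. *Gde2*KO 1 held 4903 counts of *Alb*, the liver albumin gene, against 1.37 to 4.23 in the other 4-month libraries. Neuron and astrocyte markers were present throughout, and their sums stayed within 242858 to 334763 and 121929 to 144512. Beyond leaving libraries out, the part of these differences in the results that follow was not tested.

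The promoters of the 4 members that were called with age in WT cortex are shown for reference, as the 250 bases before each transcription start (RefSeq, GRCm38.p6). Capitals mark GAGGAA, the core bound by the macrophage factor PU.1, and TGANTCA, the AP-1 core, searched on both strands; the motifs do not overlap in these windows. *Itgax* lies at chr7:128129300-128129549 (+), *Clec7a* at chr6:129472780-129473029 (-), *Spp1* at chr5:104434861-104435110 (+) and *Cd68* at chr11:69666171-69666420 (-).
Itgax: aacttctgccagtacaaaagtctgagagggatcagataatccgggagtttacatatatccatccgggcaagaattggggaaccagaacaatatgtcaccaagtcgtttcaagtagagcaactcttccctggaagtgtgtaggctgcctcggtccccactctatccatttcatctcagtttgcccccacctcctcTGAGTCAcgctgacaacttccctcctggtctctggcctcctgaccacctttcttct
Clec7a: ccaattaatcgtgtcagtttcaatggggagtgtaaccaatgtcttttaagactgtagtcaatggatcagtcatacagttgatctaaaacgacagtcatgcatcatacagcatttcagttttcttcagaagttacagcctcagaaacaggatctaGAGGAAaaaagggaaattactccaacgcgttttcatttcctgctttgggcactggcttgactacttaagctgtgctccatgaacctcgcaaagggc
Spp1: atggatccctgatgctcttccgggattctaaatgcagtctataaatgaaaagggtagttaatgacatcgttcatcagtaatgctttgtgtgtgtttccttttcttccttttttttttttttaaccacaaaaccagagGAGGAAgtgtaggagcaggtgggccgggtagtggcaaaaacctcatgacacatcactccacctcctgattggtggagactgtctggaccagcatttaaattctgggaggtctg
Cd68: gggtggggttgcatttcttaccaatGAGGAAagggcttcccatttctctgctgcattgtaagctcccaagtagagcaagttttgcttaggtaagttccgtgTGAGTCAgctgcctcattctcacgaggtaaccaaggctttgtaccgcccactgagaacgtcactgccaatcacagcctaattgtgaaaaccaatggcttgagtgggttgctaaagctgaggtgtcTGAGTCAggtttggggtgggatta
The PU.1 letters were found in *Clec7a*, *Spp1* and *Cd68* and the AP-1 letters in *Itgax* and, at 2 places, in *Cd68*. Of the 8 members with a window in the table, 6 held the PU.1 letters and 3 the AP-1 letters. Over 32851 windows of the same length the shares were 23.3% and 6.75%. A match is a run of letters only, and binding was not measured.

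In GRCm38 the members lie at chr17:48346401-48354147 (*Trem2*, +), chr7:30413760-30417585 (*Tyrobp*, +), chr7:19696109-19699188 (*Apoe*, -), chr2:150570415-150578944 (*Cst7*, +), chr7:128129547-128150657 (*Itgax*, +), chr6:129461591-129472779 (*Clec7a*, -), chr8:68880491-68907448 (*Lpl*, +), chr7:25757273-25788705 (*Axl*, -), chr5:104435118-104441050 (*Spp1*, +) and chr11:69664213-69666153 (*Cd68*, -). Per unit of transcript length, *Apoe*, which carries lipid between cells, was the highest member in each group, with a mean of 3439 ± 56.5 TPM in 4-month WT cortex (SD, n = 3). *Tyrobp*, the signalling adaptor, followed at 31.6 ± 6.54 TPM, *Lpl*, which releases fatty acids from lipoproteins, at 29.5 ± 16.1 TPM and *Axl*, a receptor for phosphatidylserine bridged by GAS6, at 21.1 ± 3.09 TPM, and the library ranges of these neighbours overlapped. *Cd68*, a lysosomal membrane glycoprotein, *Spp1*, which encodes osteopontin, and *Trem2* came next at 10.5 ± 2.44, 8.79 ± 5.40 and 7.85 ± 1.72 TPM, again with overlapping ranges. *Cst7*, which encodes the protease inhibitor cystatin F, *Clec7a*, the beta-glucan receptor dectin-1, and *Itgax*, the integrin CD11c, were near the detection limit at 0.273, 0.240 and 0.234 TPM. In 19-month WT cortex *Spp1* stood second at 43.9 ± 1.89 TPM, with a range that overlapped that of *Tyrobp* at 41.5 ± 1.99 TPM. *Clec7a* was at 8.64 ± 1.44 and *Itgax* at 2.14 ± 0.578 TPM there, and both remained below *Trem2* at 13.7 ± 1.40 TPM.

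**Figure D1:**
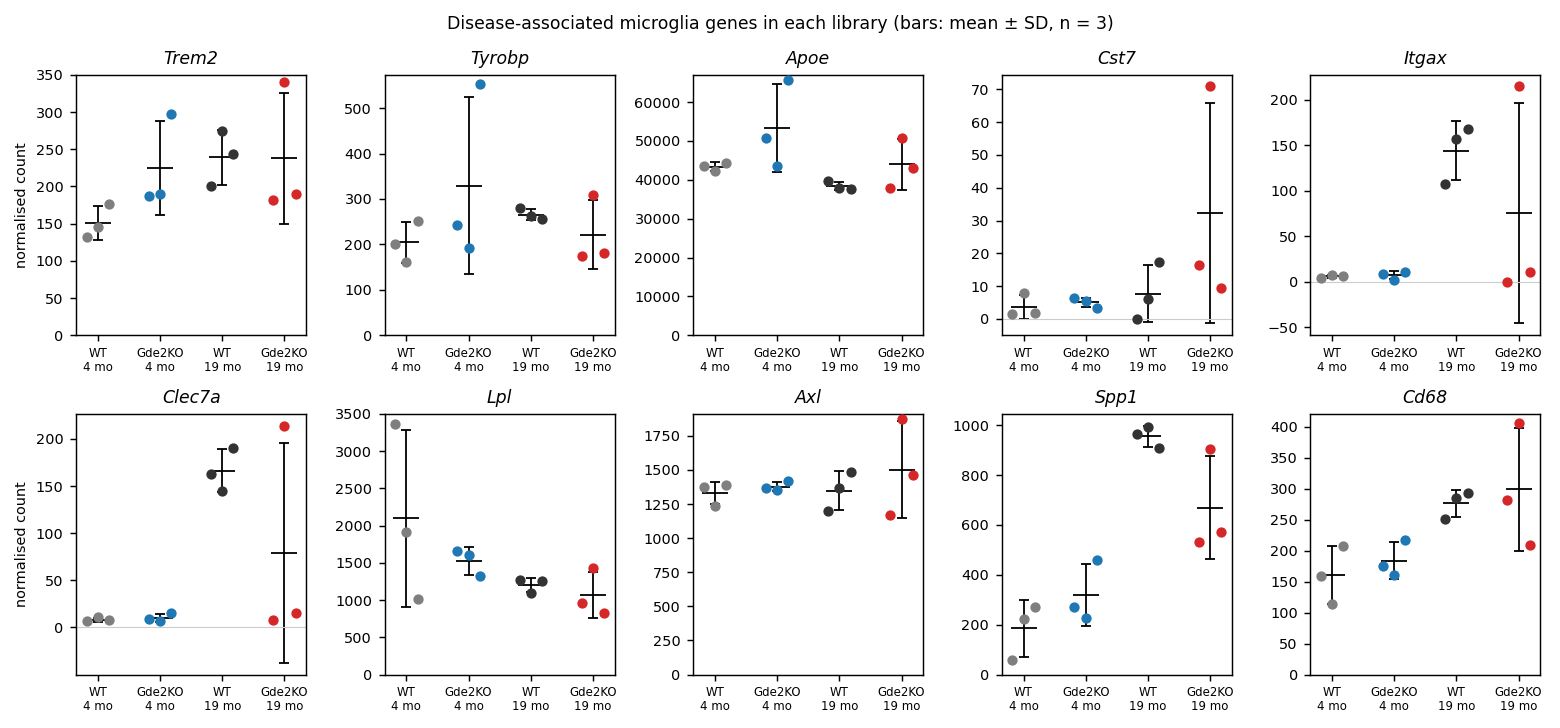
Normalised counts (y axis, linear, a separate scale for each gene) of the 10 members in the 12 libraries, grouped on the x axis by genotype and age; points are libraries and bars the mean ± SD (n = 3). *Itgax* and *Clec7a* are near 0 at 4 months, high in the 3 WT libraries at 19 months and high in 1 of the 3 19-month *Gde2*KO libraries; the SD bars of the latter reach below 0, which the counts themselves cannot.

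At 4 months no member was called between *Gde2*KO and WT cortex, against 0.126% of the 19035 genes tested (called: adjusted p under 0.1 and a log2 fold change beyond 0.721). At an unadjusted p under 0.05 there were 2025 genes, and 1 member, *Trem2*. *Trem2* was 132, 146 and 176 in WT and 187, 189 and 298 in *Gde2*KO. It was the only member whose groups did not overlap, as they did not for 15.4% of all genes, although with TPM its groups overlapped and those of *Apoe* did not. The log2 fold change was 0.55 ± 0.23 (unadjusted p = 0.0482, limma adjusted p = 0.463), and the exact permutation p was 0.1, the smallest that 3 against 3 libraries allow. *Tyrobp* was 201, 161 and 252 in WT and 244, 191 and 553 in *Gde2*KO, and library *Gde2*KO 3 alone lay above the WT range by a wide margin. That library was also the highest of the 6 for *Apoe*, at 65658 against 42282 to 50854 in the other 5, and for *P2ry12*, at 1559 against 739.6 to 811. The 18 homeostatic microglia markers, *Trem2* and *Tyrobp* among them, summed to 22567 in *Gde2*KO 3 and to 11743 to 15955 in the other 5, so *Trem2*, *Tyrobp*, *Apoe* and the homeostatic genes were high in the same library. *Lpl* and *Cst7* were not, at 1317 and 3.45. *Gde2*KO 3 also had the highest neuron marker sum at 4 months, at 334763 against 242858 to 294402, and the highest total, at 41229100 normalised counts against 31917400 to 35949200.

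*Spp1* at 4 months was 57.7, 224 and 272 in WT and 270.0, 227 and 459.7 in *Gde2*KO, with a log2 fold change of 0.996 ± 0.56 (adjusted p = 0.494). The low value belonged to WT 1. *Lpl* ran the other way in that library, at 3369.6, 1909 and 1016 in WT 1, 2 and 3 against 1656, 1604 and 1317 in *Gde2*KO, and the order of the WT libraries followed the sums of the hippocampal markers. *Gfap*, the astrocyte filament gene, was also highest in WT 1, at 24555 against 3672 to 7548 in the other 4-month libraries. *Axl* was 1234 to 1387 in WT and 1351 to 1418 in *Gde2*KO, and *Cd68* was 114 to 208 and 160.2 to 217. *Cst7* stayed at 1.44 to 7.86 and 3.45 to 6.27, *Itgax* at 4.33 to 7.26 and 2.06 to 11, and *Clec7a* at 6.58 to 10.7 and 6.95 to 14.9, which in these libraries stand for 2 to 21.6 estimated reads. The median log2 fold change of the 10 members was 0.25, beside 0.11 over all genes tested and 0.45 over the 18 homeostatic markers, none of which was called.

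At 19 months again no member was called between the genotypes, against 0.0969% of 18583 genes. Of all genes 1285 had an unadjusted p under 0.05, and of the members 2 did, *Spp1* and *Clec7a*. *Spp1* was 964, 994 and 911 in WT and 531, 906 and 573 in *Gde2*KO, so that each *Gde2*KO library lay below each WT library, as groups did not overlap for 14.2% of genes. The log2 fold change was -0.55 ± 0.18 (unadjusted p = 0.0148, adjusted p = 0.645, exact permutation p = 0.1). *Cst7* was 0, 5.93 and 17.3 in WT and 16.6, 70.9 and 9.36 in *Gde2*KO, and these groups overlapped. The 0 in WT A allows up to 14 normalised counts, the worth of 3 reads, and the 16.6 in *Gde2*KO A stands for 2 estimated reads.

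*Clec7a* and *Itgax* divided the 19-month *Gde2*KO libraries. *Clec7a* was 163, 145 and 190.3 in WT and 8.29, 214 and 15.6 in *Gde2*KO A, B and C. *Itgax* was 107, 157 and 168 in WT and 0, 215 and 10.9 in *Gde2*KO. *Gde2*KO B exceeded every WT library for both genes, while A and C were near the 4-month values. The *Clec7a* value of *Gde2*KO A stands for 1 estimated read and the 0 of *Itgax* there allows up to 24.9 normalised counts, which is below the WT range, and *Gde2*KO C was sequenced to 40558432 estimated reads. The log2 fold changes were -2.41 ± 0.996 for *Clec7a* (unadjusted p = 0.0405, adjusted p = 0.711) and -3.73 ± 1.77 for *Itgax* (adjusted p = 0.712). Without *Gde2*KO B, *Clec7a* passed the call at -3.80 (adjusted p = 0.00650) and *Spp1* at -0.79 (adjusted p = 0.0234), among 0.246% of genes called; *Itgax* did not, at -5.89 (adjusted p = 0.178). Without the shallow *Gde2*KO A the differences shrank, to -1.49 for *Clec7a* (adjusted p = 0.857), -1.52 for *Itgax* (adjusted p = 0.864) and -0.41 for *Spp1* (adjusted p = 0.819). The log2 fold change of *Itgax* also rests on the pseudocount of 0.5 set against the 0 of *Gde2*KO A, since the ratio of the mean counts, *Gde2*KO to WT, was 0.522 for *Itgax* and 0.478 for *Clec7a*.

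The same libraries were set apart by genes of tissue macrophages, which were picked after their values had been seen. *Mmp12*, a macrophage elastase, was 640.2, 623 and 865 in WT A, B and C and 67.6, 793 and 56.8 in *Gde2*KO A, B and C. *Cd36*, a scavenger receptor, was 544 to 664 in WT and 82.9, 694 and 62.4 in *Gde2*KO. *Retnla*, a gene of alternatively activated macrophages, was 160.0 to 177 in WT and 16.6, 139 and 7.02 in *Gde2*KO. Over 7 such genes the sums were 1946 to 2371 in WT, 217 in *Gde2*KO A, 2286 in B and 192 in C, and at 4 months 201 to 325. Among the homeostatic microglia markers, *C1qa*, *Trem2* and *Tyrobp* also had *Gde2*KO A and C below every WT library and B above, by smaller margins. *C1qa* was 1259 to 1477.5 in WT and 945, 1656 and 1179 in *Gde2*KO A, B and C. *P2ry12* and *Tmem119* did not divide the libraries in this way. *P2ry12* was 492 to 674 in WT and 655, 527 and 626 in *Gde2*KO, and *Tmem119* was 615 to 732 and 506, 764 and 696. The rod genes did not either, at 2007, 2273 and 2408 in *Gde2*KO A, B and C. Neither did the Y-linked genes, which were low in A and high in B and C. The 9 border macrophage markers summed to 1321 to 1573 in WT and to 1009, 1338 and 1154 in *Gde2*KO A, B and C. The 9 blood leukocyte markers summed to 191 to 363 in WT and to 102, 180.3 and 183 in *Gde2*KO A, B and C. The part of blood cells and of macrophages other than microglia in the levels of *Clec7a* and *Itgax* was not tested.

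**Figure D2:**
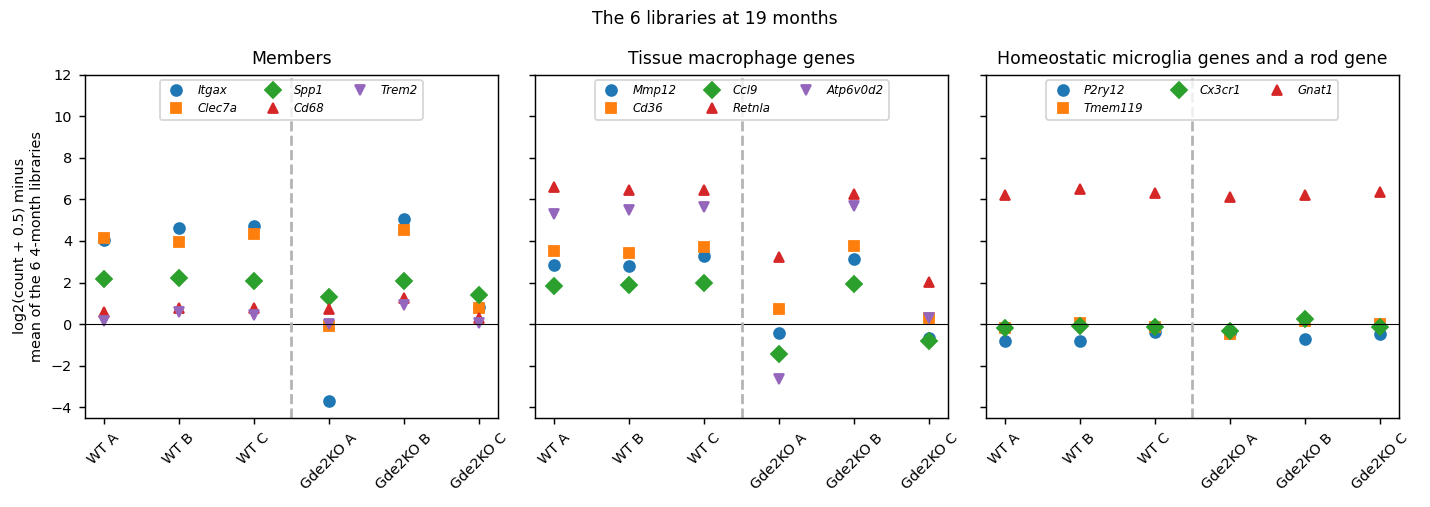
Log2(normalised count + 0.5) of single genes in each 19-month library minus the mean of the 6 4-month libraries (y axis), for 5 members, 5 tissue macrophage genes picked after their values were seen, 3 homeostatic microglia genes and the rod gene *Gnat1*; the x axis lists libraries, which have no order within a genotype. *Itgax* and *Clec7a* lie with the macrophage genes, high in WT A, B and C and in *Gde2*KO B and low in *Gde2*KO A and C (*Itgax* and *Atp6v0d2* are at 0 in A), whereas *P2ry12*, *Tmem119*, *Cx3cr1* and *Gnat1* do not divide these libraries.

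The remaining members overlapped between the genotypes at 19 months in normalised counts. With TPM the groups of *Apoe* did not overlap, at 2901 to 3076 in WT and 3112 to 3867 in *Gde2*KO. *Trem2* was 200.3, 274 and 244 in WT and 182, 339.9 and 190.5 in *Gde2*KO, and *Tyrobp* was 279.5, 262 and 255 and 174, 308 and 180.2. For both genes *Gde2*KO B was highest, while A and C were below every WT library. The log2 fold changes of *Trem2* and *Tyrobp* were -0.06 ± 0.25 and -0.32 ± 0.22. *Apoe* was 37618 to 39638 in WT and 37851, 50821 and 43136 in *Gde2*KO, a log2 fold change of 0.19 ± 0.09 (adjusted p = 0.723). *Lpl* was 1096 to 1268 and 827 to 1424, *Axl* 1197 to 1483 and 1169 to 1875, and *Cd68* 252 to 293 and 209 to 407. For *Lpl*, *Axl*, *Cd68* and *Apoe* too the highest 19-month value was that of *Gde2*KO B. The astrocyte gene *Gfap* was 11037 in that library and 3838 to 4893 in the other 5.

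With age, 4 of the 10 members were called in WT cortex, all higher at 19 months, beside 13.7% of the 18731 genes tested. *Spp1* rose from 57.7, 224 and 272 to 964, 994 and 911, a log2 fold change of 2.65 ± 0.47 (adjusted p = 0.00436). *Clec7a* rose from 6.58, 10.7 and 7.91 to 163, 145 and 190.3, by 4.25 ± 0.88 on the log2 scale (adjusted p = 0.00844). *Itgax* rose from 4.33, 7.26 and 6.26 to 107, 157 and 168, by 4.49 ± 1.54 (adjusted p = 0.0621), and the 4-month values stand for 6 to 12 estimated reads. With TPM the *Itgax* difference was 2.94 (adjusted p = 0.0675). *Cd68* rose from 159, 114 and 208 to 252, 285 and 293, by 0.82 ± 0.26 (adjusted p = 0.0442). *Trem2* was 0.66 ± 0.26 higher (adjusted p = 0.0950), inside the fold threshold. The groups did not overlap for 7 members, 6 higher and *Apoe* lower, as for 46% of all genes.

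All 19-month WT libraries carried rod and pigment cell genes and Y-linked genes at levels not seen in the 4-month WT libraries, so in WT the differences with age cannot be told apart from those of tissue content and sex. The *Itgax* and *Clec7a* differences moved with the tissue macrophage genes given above. Those genes were picked after their values had been seen, so this likeness is not a test. The 9 border macrophage markers summed to 664 to 1212 in WT at 4 months and 1321 to 1573 at 19 months. *Cbr2* (2.51 ± 0.41) and *Mrc1* (2.21 ± 0.47) were called higher, and 1 marker, *Cd163*, was below 0 (-0.43 ± 0.46). The 9 blood leukocyte markers summed to 117 to 149 and 191 to 363, and 7 were tested. *Plac8* (4.13 ± 0.77), *S100a9* (4.59 ± 1.20) and *Ly6c2* (1.49 ± 0.59) were called higher. *Cd3g* (-0.90 ± 0.53) and *Cd3e* (-0.46 ± 0.32) were below 0 and not called. Of 5 red blood cell genes 4 were called higher. These counts stand beside 13.7% of all genes called in WT. The part of blood cells in the members' differences was not tested. *Spp1* kept its call in each of the 18 alternatives tried, with values from 1.81 to 3.06, and was 1.95 without 4-month WT 1. *Clec7a* kept its call with each single library left out. *Itgax* lost its call without any 1 of 5 of the 6 WT libraries, and *Cd68* lost its call without 4-month WT 1 (adjusted p = 0.105) or 2 (0.60, adjusted p = 0.179), without 19-month WT B (adjusted p = 0.117) or C (adjusted p = 0.109), and with TPM, where it was 0.67. Without both 4-month WT 1 and 2 only *Spp1* was called, at 1.81 (adjusted p = 0.0348), beside 2.77% of all genes. *Clec7a* was 4.30 (adjusted p = 0.149) and *Cd68* 0.41 (adjusted p = 0.630) in that fit, in which the single WT library left at 4 months was assumed to vary like the other groups.

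In *Gde2*KO cortex no member was called with age, beside 11.9% of genes, and 2 members, *Spp1* and *Cd68*, were among the 7032 genes with an unadjusted p under 0.05. *Spp1* was 270.0, 227 and 459.7 at 4 months and 531, 906 and 573 at 19 months, without overlap, and its log2 fold change was 1.10 ± 0.47 (adjusted p = 0.112). *Cd68* was 175, 160.2 and 217 against 282, 407 and 209, with 0.66 ± 0.26 (adjusted p = 0.0839), which is inside the fold threshold. *Cst7* was 3.45 to 6.27 against 9.36 to 70.9, also without overlap, with 2.08 ± 1.19 (adjusted p = 0.218). *Clec7a* and *Itgax* had log2 fold changes of 1.62 ± 0.88 and 0.72 ± 1.54 there, *Gde2*KO B against A and C. Groups did not overlap for 2 members and for 41.2% of genes. The median of all genes was -0.21 in this comparison and -0.05 after median-ratio scaling, under which *Spp1* (1.26, adjusted p = 0.0742) and *Cd68* (0.82, adjusted p = 0.0381) passed the call.

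The difference between the genotypes in the change with age was tested as an interaction, for which no member passed an adjusted p of 0.1, against 0.048% of genes, and 1 member, *Spp1*, was among the 2408 genes with an unadjusted p under 0.05. It was -1.55 ± 0.67 on the log2 scale for *Spp1* (unadjusted p = 0.0381, adjusted p = 0.379), -2.62 ± 1.24 for *Clec7a* (adjusted p = 0.390) and -3.77 ± 2.18 for *Itgax* (adjusted p = 0.445). A call in WT and none in *Gde2*KO was therefore not shown to be a difference between the genotypes. Without *Gde2*KO B the interaction of *Clec7a* was -4.01 (adjusted p = 0.0558), whereas without *Gde2*KO A it was -1.71 (adjusted p = 0.553). That of *Itgax* was -5.93 (adjusted p = 0.410) and -1.56 (adjusted p = 0.631) in the same fits. Without 4-month WT 3 that of *Spp1* was -1.97 (adjusted p = 0.0806), in a fit that called 2029 genes in place of 9.

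**Figure D3:**
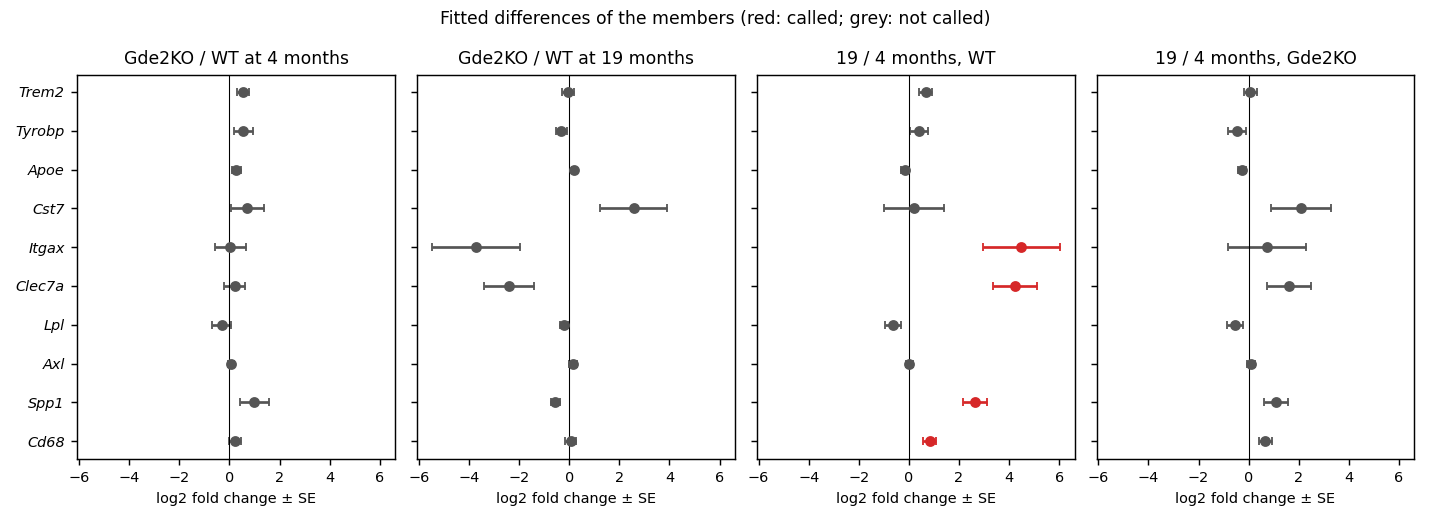
Log2 fold changes of the 10 members (x axis, ± SE from limma) in 4 comparisons, with genes on the y axis; red marks the called members. The called members are *Itgax*, *Clec7a*, *Spp1* and *Cd68* in WT cortex between 4 and 19 months, and no member is called in the other 3 comparisons.

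To set the members beside the amount of microglial RNA, each was expressed relative to the mean log2 count of 16 homeostatic microglia markers that are no members, as a description. *Trem2* was -2.03 relative to the markers in 4-month WT and -1.87 in 4-month *Gde2*KO, a difference of 0.15 in place of the 0.55 of the direct comparison, and the groups overlapped. *Tyrobp* differed by 0.16 on this scale and *Apoe* by -0.12 at 4 months. At 19 months *Spp1* stayed lower in *Gde2*KO, at 0.07 against 0.64, without overlap. *Apoe* was 6.14 in *Gde2*KO and 5.97 in WT there, also without overlap. Its direct counts did overlap, at 37851 to 50821 in *Gde2*KO and 37618 to 39638 in WT. Astrocytes make most of the cortical *Apoe*, so microglial markers are not a scale for it. Relative to the same markers *Spp1* and *Cd68* were higher at 19 months in both genotypes without overlap, by 2.65 and 0.83 in WT and by 1.47 and 1.03 in *Gde2*KO, and *Trem2* was by 0.66 and 0.43. In *Gde2*KO the direct change of *Trem2* was 0.05 ± 0.26, with groups that overlapped, while 15 of the 18 homeostatic markers had values below 0, with a median of -0.36.

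**Figure D4:**
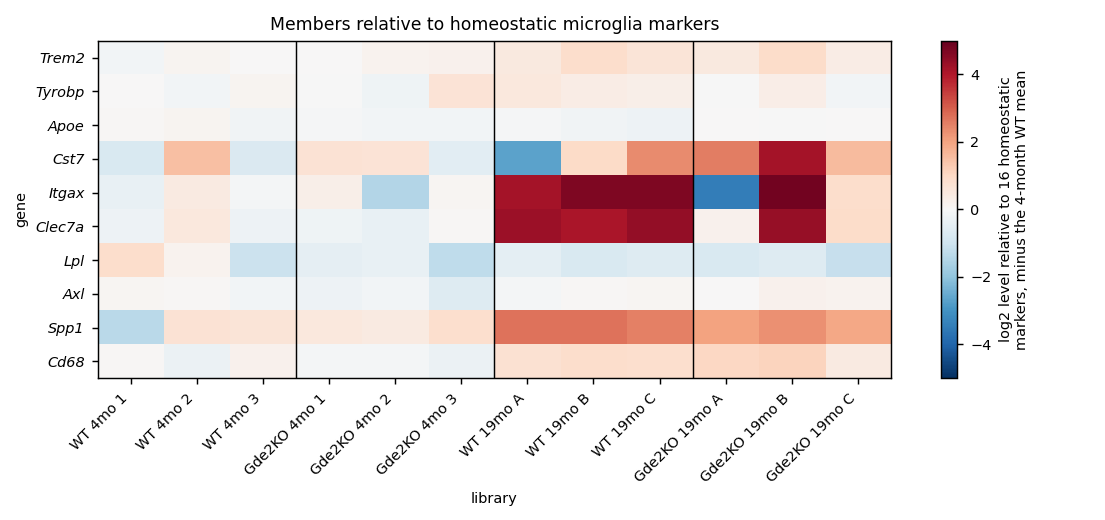
Log2 level of each member (rows) relative to the mean of 16 homeostatic microglia markers in each of the 12 libraries (columns), after subtraction of the member's mean in 4-month WT cortex; red is higher and blue lower, and values beyond 5 are drawn at the end of the scale. *Spp1*, *Cd68* and *Trem2* are shifted up in all 6 19-month libraries. *Clec7a* is also above its 4-month WT mean of -6.14 in all 6, but *Gde2*KO A, at -5.92, rests on 1 estimated read. *Itgax* and *Clec7a* are shifted by more than 4 in WT A, B and C and *Gde2*KO B.

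The other genes of the pathway were described from lists. Of 34 further disease-associated microglia genes 32 were tested with age, and in WT 6 were called higher and 1 lower, beside 13.7% of all genes, those of smallest adjusted p being *Lgals3*, *Gpnmb*, *Lyz2* and *Plin2*, higher, and *Cd9*, lower. *Lgals3*, which encodes galectin-3, was 3.91 ± 0.55 higher on the log2 scale (adjusted p = 0.00112) and *Gpnmb*, a lysosomal glycoprotein also made by pigment cells, 3.48 ± 0.50 (adjusted p = 0.00129). In *Gde2*KO 2 were called, beside 11.9% of all genes, *Gpnmb* at 3.77 ± 0.50 and *Lgals3* at 2.68 ± 0.55. *Lgals3* followed the library pattern of *Clec7a* at 19 months, at 479.9 to 603 in WT and 91.2, 623 and 170.0 in *Gde2*KO. The median log2 change of the tested genes of this list was 0.35 in WT and -0.01 in *Gde2*KO, beside -0.07 and -0.21 over all genes. Between the genotypes none of the list was called at either age. The smallest adjusted p were those of *Ch25h* (0.85 ± 0.34) and *Gpnmb* (-0.97 ± 0.42) at 4 months, both 0.463, and of *B2m* (-0.40 ± 0.15, adjusted p = 0.691) and *Lgals3* (-1.29 ± 0.57, adjusted p = 0.711) at 19 months.

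Of 15 TREM2 signalling partners 14 were tested with age, and *Ms4a6d* was called with age in WT (1.59 ± 0.48, adjusted p = 0.0384) and none in *Gde2*KO. Of 18 lipid handling partners of *Apoe* and *Lpl* 17 were tested, and *Cd36* was called in WT (3.81 ± 0.79, adjusted p = 0.00852). Both counts stand beside the 13.7% of all genes called in WT. Of 5 receptors and ligands of the AXL family, *Axl* itself included, *Mertk*, a receptor for the clearance of apoptotic cells, was called in WT (0.73 ± 0.19, adjusted p = 0.0222). Of 11 osteopontin and integrin partners, *Itgal*, *Itgb2*, the beta chain that pairs with CD11c, and *Itgb3* were called in WT, with *Itgb2* at 1.45 ± 0.33 (adjusted p = 0.0121). The counts of the AXL family and of the integrin list also stand beside 13.7% of all genes. None of these 4 lists had a gene called between the genotypes at either age or with age in *Gde2*KO. At 4 months the largest of their differences by adjusted p, all at 0.463, were *Plcg2* (-0.56 ± 0.18), *Lrp8* (-0.36 ± 0.14), *Tyro3* (0.80 ± 0.23), *Itgav* (0.87 ± 0.29) and *Itgal* (0.83 ± 0.32). At 19 months they were *Clu* (0.19 ± 0.05, adjusted p = 0.567), *Abca1* (0.28 ± 0.11, adjusted p = 0.697), *Ms4a6d* (-1.10 ± 0.43, adjusted p = 0.711) and *Mertk* (-0.24 ± 0.11, adjusted p = 0.711). Of the 18 homeostatic markers 1 was called with age in WT, beside 13.7% of all genes. It was *Gpr34*, lower by 0.79 ± 0.24 on the log2 scale (adjusted p = 0.0421). In WT 11 of the 18 had values above 0 and 7 below, with a median of 0.06. *Aif1*, which encodes the microglial marker Iba1, was 0.15 ± 0.25 there and not called. In *Gde2*KO 2 of the 18 were called lower, beside 11.9% of all genes. *Gpr34* fell by 1.10 ± 0.24 and *Aif1* by 0.85 ± 0.25 in *Gde2*KO, where the median of all genes was -0.21. *Aif1* was 153, 146 and 273 in 4-month *Gde2*KO 1, 2 and 3. It was 82.9, 118 and 105 in 19-month *Gde2*KO A, B and C, and the value of A stands for 10 estimated reads.

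After subtraction of group means, Pearson's r over the 12 libraries was 0.94 between *Tyrobp* and *Apoe*, 0.92 between *Itgax* and *Clec7a* and 0.81 between *Trem2* and *Tyrobp*, and -0.65 between *Lpl* and *Spp1*. These values describe libraries that share their size factors and tissue content. The 5 non-member genes most like the mean of the members' standardised log2 values after the same subtraction, out of 12962 with a mean of 100 counts or more, were *Ly86* (r = 0.95), *Dock2* (0.95), *Irgm1* (0.94), *Ccl9* (0.94) and *Ggta1* (0.94). Without the subtraction they were *Irgm1* (0.94), *C1qc* (0.92), *Psmb8* (0.92), *Fcer1g* (0.92) and *Tnfrsf1a* (0.89).

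Transcript shares of the summed TPM of a gene were read as a description. *Cst7* has a single transcript, and in *Spp1* (85.3% to 98.6%) and *Lpl* (74.4% to 94.3%) 1 protein-coding transcript held most of the signal in each library. In *Trem2* the main transcript held 54.4% to 82%. In *Apoe* a transcript annotated as processed held 44.5% to 51.4% and a protein-coding transcript 40% to 46%. *Clec7a* differed most, since a protein-coding transcript (ENSMUST00000184581.2) held 52.6% to 100% in the 6 19-month libraries and 0 in 5 of the 6 4-month libraries. The whole gene rests on 9.12 to 21.6 estimated reads at 4 months, and on 1 and 20.1 in 19-month *Gde2*KO A and C. The assignment of so few reads among overlapping transcripts is uncertain. *Spp1* overlaps the predicted gene *Gm42793* on the same strand, and the other 9 members overlap no annotated gene in GENCODE vM21.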

How the data were processed

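Cortical RNA from 12 mice was sequenced as poly(A) libraries. The authors quantified reads against the GRCm38 transcriptome with Kallisto and normalised them in Sleuth (versions not given in the sources used here; the submitters' processing notes also list bcl2fastq 2.17, Trimmomatic 0.36 and STAR 2.5.2b). The deposited values are signal: estimated counts, and in a second table TPM, per transcript, each divided by a library size factor over all 12 libraries together. They are not counts, so a count test was not used.

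Transcripts were summed to genes (118489 transcripts, of which 1673, holding 0.541% to 0.605% of a library, name no gene and were left out; 0 columns were of no sample). Genes with 5 normalised counts in at least 47% of a comparison's libraries were tested with limma 3.58.1 (R 4.3.3) on log2(value + 0.5) with an intensity trend, which understates folds of low genes but can enlarge one where a shallow library is at 0. Genotype was fitted within each age, and age and the interaction on 12 libraries in 4 groups, with Benjamini-Hochberg adjustment over all genes. Calls needed an adjusted p under 0.1 and a natural-log fold change beyond 0.5 (0.721 on the log2 scale), and the interaction the adjusted p alone. Permutation tests were exact and two-sided. The value of 1 estimated read was taken as the commonest low value of a library, and limits at 0 use 3 reads and cover counting error only. Positions are from GENCODE vM21. Plots were made with matplotlib 3.10.9 in python 3.11.15.

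The 10 members and the lists were chosen with earlier results of these data known, and the lists of macrophage, rod, pigment cell, liver and Y-linked genes after values were seen. The text names all members, *Gdpd5*, of each list up to 5 called genes or those of smallest adjusted p, and the 5 genes most like the members. The labels give separate samples per group and the p-values cover the spread among them. At 4 months, same-numbered WT and *Gde2*KO libraries had correlations of deviations of 0.0596, 0.00709 and -0.0477, so numbers did not pair them. On simulated data the fit was checked before use. Alternatives were other pseudocounts, filters, scalings, TPM, variance models and libraries left out.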

Additional observations from a re-analysis of the deposited data

How the results depend on the processing

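*Spp1* with age in WT kept its call in all 18 alternatives, and no called member changed direction. With array weights (a fit that did not fully converge) 4 members were called with age in *Gde2*KO, beside 17.8% of all genes, and 3 in the interaction, beside 46.7%. Members called with age in *Gde2*KO were 2 with a pseudocount of 5 (beside 12.4% of all genes), 1 with a mean of 50 or more (10.7%), 2 after median-ratio scaling (8.92%), 3 after quantile normalisation (9.7%), 1 with TPM (10.5%), 2 without the libraries of low depth, 19-month WT A and *Gde2*KO A (12.8%), 1 without 4-month WT 1 and 2 (11.3%) and 1 with only the 2 groups compared (9.97%). With age in WT 1 was called without 4-month WT 1 and 2 (2.77% of all genes), and *Itgax* lost its call with a pseudocount of 0.1 (adjusted p = 0.124), no filter (0.101) or no trend (0.101). With TPM 1 member, *Apoe* in place of *Trem2*, did not overlap between genotypes at 4 months and 2, *Spp1* and *Apoe*, at 19 months. Leaving out 1 library gave 0 to 2 members called between genotypes at 19 months (2 without *Gde2*KO B, beside 0.246% of all genes). With age in WT it gave 2 to 6. There were 2 without 4-month WT 1 or 2 or 19-month WT B or C (8.47%, 8.23%, 10.4% and 12.2% of all genes). Without 4-month WT 3 there were 6 (16.7%). With age in *Gde2*KO it gave 0 to 2, with 2 without 19-month *Gde2*KO A (11.6%) and 1 without C (11.2%) or 4-month *Gde2*KO 3 (5.91%). In the interaction it gave 0 to 1, *Spp1* without 4-month WT 3 (11%) and *Clec7a* without 19-month *Gde2*KO B (0.0807%). The cause of these changes was not tested. Depth limits *Cst7*, *Itgax* and *Clec7a* most.

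Directions of uncalled members also changed, as log2 differences. For genotype at 4 months, *Itgax* was -0.060 after median-ratio scaling, -0.050 after quantile normalisation, -0.59 with TPM and -0.058 without 4-month WT 1 and 2, and *Axl* was -0.050, -0.091, -0.058 and -0.0097. *Clec7a* was -0.19 with array weights, and without WT 1 and 2 *Lpl* was 0.58 and *Cd68* -0.19. *Cd68* at 19 months was -0.13 with array weights. With age in WT, *Cst7* was -0.38 with a pseudocount of 0.1 and -0.17 with array weights, *Axl* -0.17 with TPM and -0.046 without WT 1 and 2, and *Lpl* 0.24 without them. In the interaction *Apoe* was 0.032 after median-ratio scaling, 0.033 after quantile normalisation and 0.036 without low-depth libraries, *Cd68* 0.015 after quantile normalisation, 0.017 with TPM and 0.25 without WT 1 and 2, and *Lpl* -0.79 without them. With 1 library left out, the ranges at 4 months were -0.38 to 0.71 (*Itgax*), -0.086 to 0.44 (*Clec7a*), -0.74 to 0.12 (*Lpl*) and -0.0019 to 0.082 (*Axl*), and at 19 months -0.35 to 0.099 (*Trem2*), -0.039 to 0.30 (*Axl*) and -0.18 to 0.29 (*Cd68*). With age they were -0.90 to 1.68 (*Cst7*) and -0.056 to 0.098 (*Axl*) in WT and -0.23 to 0.27 (*Trem2*), -1.44 to 2.93 (*Itgax*) and -0.075 to 0.27 (*Axl*) in *Gde2*KO. In the interaction they were -0.23 to 0.070 (*Apoe*), -0.33 to 0.53 (*Lpl*), -0.090 to 0.25 (*Axl*) and -0.41 to 0.067 (*Cd68*). Median-ratio scaling moved the median of all genes at 4 months from 0.11 to 0.00029.

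With the replicate number as a block, 0 members and 21 genes were called at 4 months, against 24 genes without it, and not every library correlated best with its own number. For 19 months and for the comparisons with age no paired analysis was possible because the 19-month columns carry no replicate number.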
